A study of Mus musculus with 36 samples.

Results

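The EpiLCs of the Polycomb-like triple knockout (TKO) line lack the proteins PHF1, MTF2 and PHF19, and their RNA was set here against that of EpiLCs of PclWT, the matched wild-type line. The 3 TKO EpiLC and 3 PclWT EpiLC libraries were chosen by their names from the 36 libraries of the series, and all genes in them were examined. Both lines are mouse embryonic stem cells (ESCs) of the C57BL/6 strain, kept with serum, LIF and inhibitors of GSK and MEK. They were turned into epiblast-like cells (EpiLCs), a model of the epiblast just after implantation, by 2 days on fibronectin with 20 ng/ml of activin A, 12 ng/ml of bFGF and serum replacement at 1%. Used beside them were QKO EpiLCs, which lack JARID2 as well as the Polycomb-like proteins, the ESCs of TKO and PclWT, and the EpiLCs of J2WT and WT, the wild-type controls of a Jarid2-null line and of a Pcgf2/4-null line, with 3 libraries in each group. TKO and PclWT are separate lines, so line and genotype cannot be told apart, and the labels do not say whether the libraries of a group come from separate cultures.

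Polycomb repressive complex 2 (PRC2) methylates histone H3 at developmental genes and keeps them silent. Its core of EZH2, EED and SUZ12 joins either a Polycomb-like protein, which binds unmethylated CG-rich DNA and defines the form PRC2.1, or JARID2 and AEBP2, which define PRC2.2. Canonical PRC1 binds the methylated histone and compacts the chromatin. When naive ESCs become EpiLCs they shut down naive pluripotency genes and switch on formative ones, and PRC2 moves to some promoters and leaves others.

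Counts in genes were 10599906, 9057119 and 6784578 in the TKO EpiLC libraries and 8281855, 8655605 and 8794206 in the PclWT EpiLC libraries. Replicate 1 of PclWT EpiLCs stood apart. It differed by more than 2-fold from replicates 2 and 3 at 1273 and 1448 genes, while those 2 libraries differed from each other at 1 gene and the TKO EpiLC libraries at 2 to 13. Ribosomal protein genes took 7.05% of its counts, against 3.62% to 4.13% in the other 5 libraries, and rRNA genes 1.21%, against 0.14% to 0.294%. Counts and lists are therefore also given without it. Levels below are CPM (a share of the TMM-scaled library total), and ± after a log2 fold change is its standard error. Adjusted p-values are from edgeR's quasi-likelihood test with Benjamini-Hochberg adjustment over all genes tested, and a gene is said to rise or fall where this p is under 0.05 and the log2 fold change is above 1 or below -1. They measure the spread between these libraries only.

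The knocked-out genes were read first. Phf1 had 0.267, 0.103 and 0 CPM in TKO EpiLCs, against 9.84, 6.24 and 7.31 CPM in PclWT EpiLCs (log2 fold change -5.69 ± 0.48, adjusted p = 0.000488). Mtf2, the main Polycomb-like gene of ESCs, had 43.5, 48.9 and 40.6 CPM in TKO EpiLCs, against 198, 233 and 239.5 CPM in PclWT EpiLCs (log2 fold change -2.37 ± 0.13, adjusted p = 0.000144). Phf19 did not differ beyond the spread, at 2.85, 2.16 and 2.27 CPM in TKO EpiLCs, against 2.84, 2.87 and 3.403 CPM in PclWT EpiLCs (log2 fold change -0.35 ± 0.21, adjusted p = 0.238), although it was 1.76 and 1.90 log2 units below J2WT and WT EpiLCs. So Phf19 RNA is no check of the label here. Phf1 lies on chromosome 17 at 26933052 to 26937908 (GRCm38) and shares 4090 bp with Cuta on the other strand, and Cuta had 0.623, 1.03 and 0.425 CPM in TKO EpiLCs, against 39.3, 19.96 and 18.3 CPM in PclWT EpiLCs (log2 fold change -5.2 ± 0.47). The libraries do not mark strand, so the reads of that overlap cannot be told apart. The neighbouring Kifc5b had a log2 fold change of 0.13, which did not pass the test.

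Of 12869 genes tested, 885 rose (6.88%) and 924 fell (7.18%) in TKO EpiLCs. Without PclWT EpiLC replicate 1, 924 rose (7.19%) and 740 fell (5.76%) of 12854 genes, and 759 of the risen genes and 652 of the fallen ones were the same. The libraries of the groups did not overlap for all 885 risen and for 921 of the fallen genes, where the background share of all genes with TKO EpiLCs above PclWT EpiLCs was 29.5% and below them 25.5%. The choice of wild-type line mattered. Among the risen genes, 564 (63.7%) were also above every J2WT and WT EpiLC library, as were 28.7% of all genes tested, and among the fallen genes 425 (46%) were below every one, as were 30.6% of all. Against J2WT EpiLCs 1661 of 13485 genes rose (12.3%) and 1148 fell (8.51%), against WT EpiLCs 1300 of 12911 rose (10.1%) and 934 fell (7.23%), and 329 genes rose and 198 fell against each of the 3 wild-type lines.

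The 10 risen genes named for the size of their change were Hoxa10, Hoxa9, Esr1, Pou4f2, Cubn, Lhx1, Gata6, Sox7, Dock10 and Gsx1. All encode transcription factors except Cubn, an endocytic receptor, and Dock10, an exchange factor for small GTPases. Esr1, estrogen receptor alpha, had 32.3, 35.1 and 37.5 CPM in TKO EpiLCs, against 0.438, 0.614 and 0.1001 CPM in PclWT EpiLCs (log2 fold change 6.43 ± 0.32, adjusted p = 0.000114). It was at or near 0 in J2WT and WT EpiLCs, at means of 0.0629 and 0.0616 CPM. Lhx1, a LIM homeobox gene of the anterior mesendoderm, had 164 counts over the TKO EpiLC libraries and 3 over the PclWT EpiLC libraries, a ratio of 55 with a 95% counting interval of 18.5 to 270. Gsx1, a homeobox gene of the neural tube, had 10.9, 11.9 and 11.2 CPM in TKO EpiLCs, against 0.328, 0.409 and 0.2002 CPM in PclWT EpiLCs (log2 fold change 5.09 ± 0.24, adjusted p = 0.000101), and Dock10 had 10.8, 11.3 and 10.1 CPM in TKO EpiLCs, against 0, 0.307 and 0.5005 CPM in PclWT EpiLCs (log2 fold change 5.18 ± 0.44, adjusted p = 0.000488). All 10 genes were above every library of the other wild-type EpiLC lines too.

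**Figure D1:**
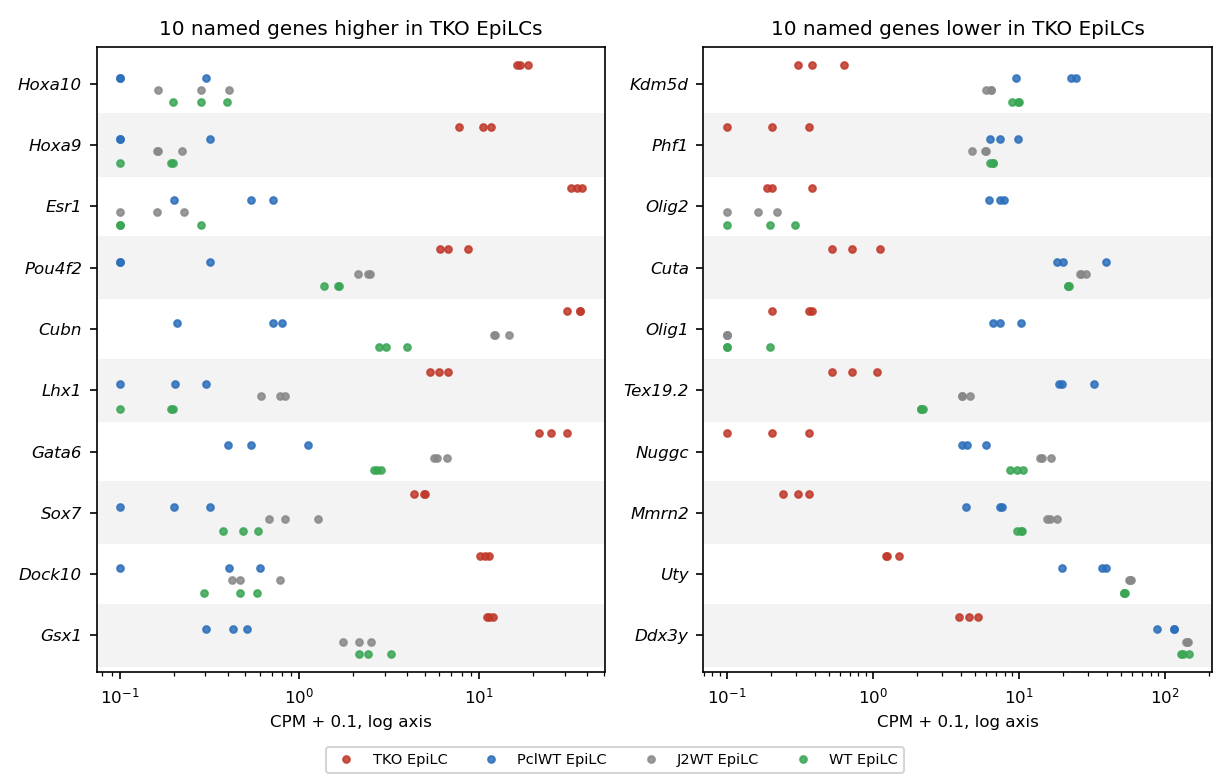
Levels of the 10 named genes that rose (left) and the 10 that fell (right), 1 point per library, as CPM plus 0.1 on a log axis. TKO EpiLCs are red, PclWT EpiLCs blue, J2WT EpiLCs grey and WT EpiLCs green; red points lie right of all others on the left panel, while Olig1 and Olig2 on the right are low in every line but PclWT.

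The 10 fallen genes named by the same rule were Kdm5d, Phf1, Olig2, Cuta, Olig1, Tex19.2, Nuggc, Mmrn2, Uty and Ddx3y. Kdm5d, Uty and Ddx3y are on the Y chromosome. Ddx3y, an RNA helicase, had 4.45, 5.15 and 3.83 CPM in TKO EpiLCs, against 88.4, 116 and 115 CPM in PclWT EpiLCs (log2 fold change -4.59 ± 0.18, adjusted p = 8.48e-05). Of 8 Y-linked genes tested, 7 fell, and all Y-linked counts summed to 100 to 117 CPM in TKO EpiLCs, against 351 to 382 CPM in PclWT EpiLCs. Olig1 and Olig2, neighbouring genes for helix-loop-helix factors of the oligodendrocyte lineage, had the opposite relation to the other lines. Olig2 had 0.089, 0.103 and 0.284 CPM in TKO EpiLCs, against 6.12, 7.78 and 7.31 CPM in PclWT EpiLCs (log2 fold change -5.53 ± 0.34, adjusted p = 0.000209), while J2WT and WT EpiLCs had 0 to 0.123 and 0 to 0.194 CPM. Its level in TKO EpiLCs was thus like that of the other wild-type lines, and PclWT was the line that differed.

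Genes on chromosomes 1, 11 and 14 were shifted as groups. The median log2 fold change in TKO over PclWT EpiLCs was 0.41 on chromosome 1, -0.60 on chromosome 11 and 0.52 on chromosome 14, while on the other 16 autosomes and X it lay between -0.10 and 0.10. On chromosome 1, 116 of 724 tested genes rose and 20 fell. On chromosome 11, 33 of 1077 rose and 256 fell, and on chromosome 14, 106 of 413 rose and 12 fell. These chromosomes held 17.2% of the genes tested, 28.8% of the risen and 31.2% of the fallen genes. Without PclWT EpiLC replicate 1 their medians were 0.43, -0.57 and 0.55, and in TKO over PclWT ESCs, which do not share libraries with the EpiLC comparison, they were 0.39, -0.51 and 0.66.

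Chromosome 1 genes took 7.19%, 7.20% and 7.17% of the counts in TKO EpiLCs, against 5.10%, 5.54% and 5.598% in PclWT EpiLCs. Chromosome 11 genes took 9.23%, 9.27% and 9.29% in TKO EpiLCs, against 12.9%, 12.9% and 12.9% in PclWT EpiLCs. Chromosome 14 genes took 2.91%, 2.90% and 2.91% in TKO EpiLCs, against 2.01%, 2.19% and 2.20% in PclWT EpiLCs. The groups did not overlap on any of them, but this also held for other chromosomes, on 14 of the 20 (autosomes and X) in all. What sets these chromosomes apart is the size of the shift, by which they were chosen, and it is given as a description without a test.

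The other wild-type lines showed which line departed. On chromosome 11 the median was -0.06 in TKO over WT EpiLCs and 0.55 in PclWT over WT EpiLCs, so of these lines PclWT stood apart there. It was not alone in the series, since chromosome 11 genes took 13.3%, 13.3% and 13.4% of the counts in EpiLCs of the Jarid2-null line. On chromosome 1 it was 0.37 in TKO over WT and -0.05 in PclWT over WT EpiLCs, so TKO stood apart. On chromosome 14 the values were 0.21 and -0.22. Against J2WT EpiLCs TKO had medians of 0.36, -0.11 and 0.24 on chromosomes 1, 11 and 14, and PclWT had -0.13, 0.41 and -0.23.

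**Figure D2:**
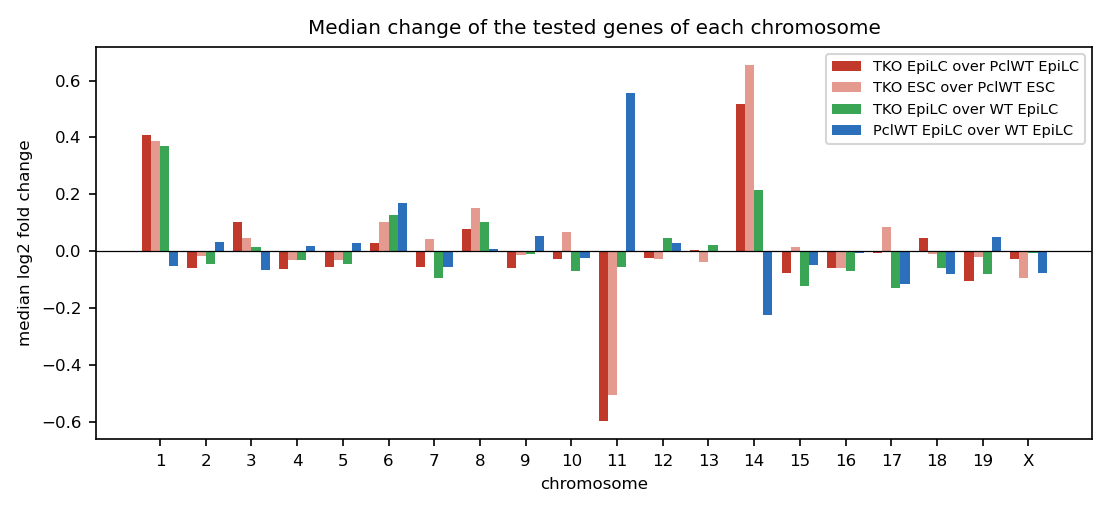
Median log2 fold change of the tested genes of each chromosome for TKO over PclWT EpiLCs (red), TKO over PclWT ESCs (pale red), TKO over WT EpiLCs (green) and PclWT over WT EpiLCs (blue). Chromosomes 1, 11 and 14 leave the baseline, at 0.41, -0.60 and 0.52 in TKO over PclWT EpiLCs.

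In windows of 10 Mb, chromosome 1 was raised along its length, with medians of 0.22 to 0.60 in TKO over PclWT EpiLCs. On chromosome 11 all windows were between -0.49 and -0.77 except that of 20 to 30 Mb, where the median of 39 genes was 0.00. Chromosome 14 changed by segment. From 0 to 40 Mb the medians were -0.22 to -0.03, and in the windows from 40 to 80 Mb they were 1.04, 0.81, 0.85 and 0.94, with 16 of 31, 36 of 103, 20 of 63 and 23 of 49 genes risen. Beyond 80 Mb each window held 4 to 17 genes. Against WT EpiLCs the segments parted again. In the windows of 40 to 50 and 70 to 80 Mb TKO was at -0.03 and -0.02 and PclWT at -1.11 and -1.09, while in that of 50 to 60 Mb TKO was at 1.03 and PclWT at 0.14.

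**Figure D3:**
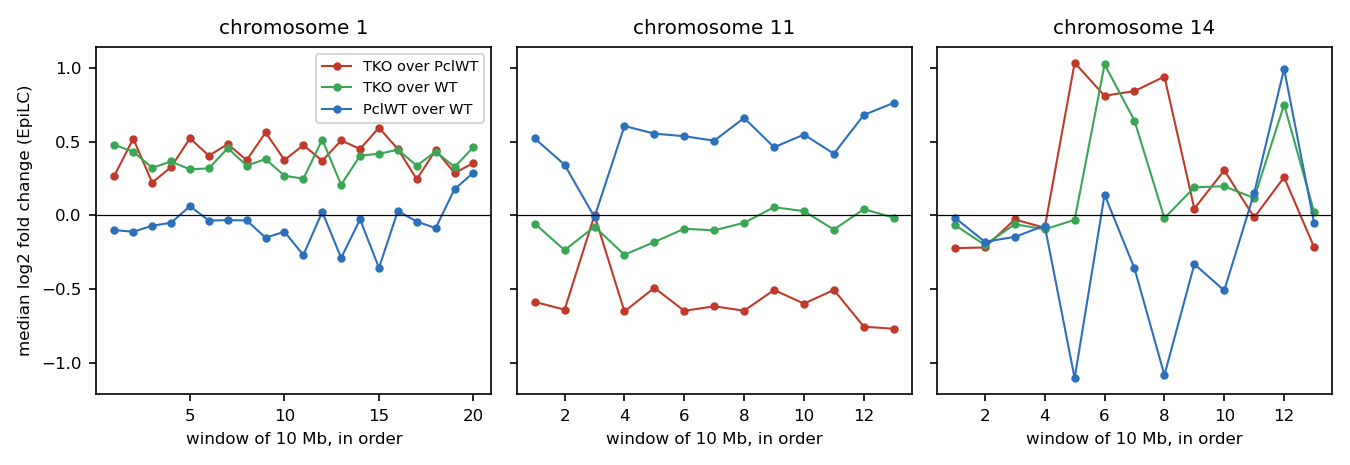
Median log2 fold change in consecutive windows of 10 Mb along chromosomes 1, 11 and 14, for TKO over PclWT (red), TKO over WT (green) and PclWT over WT EpiLCs (blue). On chromosome 14 the blue line drops to -1.11 and -1.09 in the windows starting at 40 and 70 Mb, and the green line peaks at 1.03 in the window starting at 50 Mb.

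Several genes of interest to pluripotency lie in these segments. Otx2, Sall2, Gata4, Sox7 and Rb1 are on chromosome 14 between 48.7 and 73.2 Mb, while Klf5 and Spry2 lie at 99.3 and 105.9 Mb. Gbx2, Tfcp2l1, Sox17 and Inhbb are on chromosome 1, and Etv4, Car4, Lhx1, Meis1, Grb10, Tex19.1 and the Hoxb genes on chromosome 11. Among abundant genes on chromosome 1, Enah, an actin regulator, had 580.5, 574 and 588 CPM in TKO EpiLCs, against 202, 277 and 293 CPM in PclWT EpiLCs (log2 fold change 1.14 ± 0.15, adjusted p = 0.00217). On chromosome 11 Sqstm1, the autophagy receptor p62, had 181, 178 and 185 CPM in TKO EpiLCs, against 482, 383 and 366 CPM in PclWT EpiLCs (log2 fold change -1.22 ± 0.14, adjusted p = 0.00128). On chromosome 14 Supt16, a subunit of the histone chaperone FACT, had 479.9, 469.5 and 518 CPM in TKO EpiLCs, against 99.3, 204 and 198 CPM in PclWT EpiLCs (log2 fold change 1.51 ± 0.26, adjusted p = 0.00579). Dars and C1qbp moved with their chromosomes as well, at 1.04 ± 0.11 and -1.29 ± 0.19. Ghitm on chromosome 14 rose (1.53 ± 0.11) but lies in the window of 30 to 40 Mb, where the median was -0.08. Inpp5d and Steap3 on chromosome 1 (-1.47 ± 0.16 and -1.58 ± 0.11) and Kdm6b and Cobl on chromosome 11 (1.34 ± 0.24 and 1.51 ± 0.3) went against their chromosomes. Lmo7, Slain1 and Ggact on chromosome 14 fell (-1.49 ± 0.2, -1.04 ± 0.17 and -1.29 ± 0.23). They lie outside its raised windows, in those starting at 100 Mb (Lmo7 and Slain1, median -0.01) and 120 Mb (Ggact, median -0.21). The call of Slain1 was lost without PclWT EpiLC replicate 3 or TKO EpiLC replicate 2 (-0.92 and -0.94), and that of Dars without TKO EpiLC replicate 3 (0.99). Outside these chromosomes 630 of 10655 genes rose (5.91%) and 636 fell (5.97%). With each chromosome's median subtracted from its genes, 799 genes were called higher and 743 lower.

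Few subunits of the Polycomb complexes passed the limits in RNA. None of the 6 PRC2 core genes tested passed both limits, and none of 5 other accessory genes. Ezh2, the methyltransferase, had 256, 257 and 268 CPM in TKO EpiLCs, against 152, 146 and 149 CPM in PclWT EpiLCs (log2 fold change 0.77 ± 0.09, adjusted p = 0.00162), which passed the test but not the fold limit. Eed and Suz12 were at 0.42 ± 0.14, adjusted p = 0.0512 and -0.5 ± 0.13, adjusted p = 0.0239, and Suz12 is on chromosome 11. Jarid2, the PRC2.2 subunit, was at 0.45 ± 0.16, adjusted p = 0.0739. Among 12 canonical PRC1 genes only Bmi1 rose, with 27.3, 28.03 and 26.1 CPM in TKO EpiLCs, against 9.41, 12.6 and 11.7 CPM in PclWT EpiLCs (log2 fold change 1.23 ± 0.14, adjusted p = 0.00128), and its level was within the range of J2WT and WT EpiLCs. Among 16 variant PRC1 genes only Kdm2b, whose protein brings PRC1 to unmethylated CG islands, rose (1.21 ± 0.36, adjusted p = 0.0394), and without PclWT EpiLC replicate 1 it was at 0.88 and was no longer past the fold limit.

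The study sorted PRC2-bound promoters by whether SUZ12 was recruited, maintained or displaced when wild-type ESCs became EpiLCs, and genes with a start within 2000 bp of such a site were taken here. Of 503 genes at recruited sites 316 were tested, of which 63 rose (19.9%) and 26 fell (8.23%), beside 6.88% and 7.18% of all genes. Their median log2 fold change was 0.25, against -0.03 over all genes. Of the 63, 56 had passed the count filter in both groups, and 45 were above every J2WT and WT EpiLC library. Without PclWT EpiLC replicate 1, 59 rose and 22 fell, and outside chromosomes 1, 11 and 14, 51 of 265 rose and 21 fell. Without TKO EpiLC replicate 2, 15 fell. Against J2WT EpiLCs 116 of 326 rose and 20 fell, beside 12.3% and 8.51% of all genes. Against WT EpiLCs 111 of 304 rose and 10 fell, beside 10.1% and 7.23% of all genes.

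Pou4f2, a POU homeobox gene of retinal neurons, had 197 counts over the TKO EpiLC libraries and 2 over the PclWT EpiLC libraries, a ratio of 99.1 with a 95% counting interval of 27.1 to 824. Inhbb, which encodes an activin subunit, had 12.3, 9.38 and 8.79 CPM in TKO EpiLCs, against 0.875, 0.409 and 0.2002 CPM in PclWT EpiLCs (log2 fold change 4.32 ± 0.38, adjusted p = 0.000546). Hmga2, an architectural chromatin protein, had 128, 121 and 124 CPM in TKO EpiLCs, against 9.73, 13.2 and 12.3 CPM in PclWT EpiLCs (log2 fold change 3.36 ± 0.14, adjusted p = 9.34e-05). The groups were far apart for all of these. Meis2, a TALE homeobox gene and Hox cofactor, rose as well (3.08 ± 0.24, adjusted p = 0.000383), and so did Gbx2 and Klf4, given below. The recruited genes that fell were Ndrg1, Klf2, Atxn1, Pld1 and Dusp14 by the naming rule. Ndrg1, a stress-responsive gene, had 1.42, 0.721 and 1.99 CPM in TKO EpiLCs, against 10.5, 10.03 and 8.61 CPM in PclWT EpiLCs (log2 fold change -2.89 ± 0.29, adjusted p = 0.000889), and it was at means of 26.7 and 51.2 CPM in J2WT and WT EpiLCs. Pld1, a phospholipase, was also below both (-2.01 ± 0.32). Atxn1 and Dusp14 fell against PclWT (-2.48 ± 0.32 and -1.64 ± 0.18) but were 0.72 and 0.70 above J2WT and 0.46 and 0.50 above WT EpiLCs on the log2 scale.

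Displaced sites gave 75 tested genes of 96, of which 14 rose (18.7%) and 3 fell (4%), with a median of 0.35. Of all genes 6.88% rose and 7.18% fell. The direction of the displaced-site genes did not hold against the other lines, where 9 rose and 15 fell of 77 against J2WT and 6 rose and 18 fell of 76 against WT EpiLCs. Over all genes 12.3% rose and 8.51% fell against J2WT, and 10.1% rose and 7.23% fell against WT EpiLCs. Jph1, a junctional membrane protein, had 45.5, 48.02 and 50.5 CPM in TKO EpiLCs, against 12.2, 15.04 and 12.4 CPM in PclWT EpiLCs (log2 fold change 1.82 ± 0.13, adjusted p = 0.000308) and was above both other lines. Jph4, of the same family, rose too (2.21 ± 0.17). Zfp608 and Zfp467, zinc finger genes, rose against PclWT (1.96 ± 0.38 and 1.94 ± 0.21) and were below J2WT and WT EpiLCs. Selenoi, an enzyme of phospholipid synthesis, fell against all of them, with 13.6, 12.2 and 12.8 CPM in TKO EpiLCs, against 55.8, 78.5 and 77.2 CPM in PclWT EpiLCs (log2 fold change -2.49 ± 0.16, adjusted p = 0.000245). The maintained sites read here are part of the study's list, and of 1129 tested genes at them 176 rose (15.6%) and 108 fell (9.57%), with a median of 0.08. Against J2WT EpiLCs 421 of 1174 of them rose and 118 fell, beside 12.3% and 8.51% of all genes. Against WT EpiLCs 349 of 1103 rose and 91 fell, beside 10.1% and 7.23% of all genes.

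The promoters of a few of these genes are shown because Polycomb-like proteins bind CG-rich DNA. Each runs from 250 bases before to 50 after the start of transcription in RefSeq (GRCm38.p6), 5′ to 3′, with every CG in capitals. Pou4f2 (chr8:78436598-78436897 on the minus strand) and Klf4 (chr4:55532426-55532725 on the minus strand) are recruited genes that rose, Klf2 (chr8:72318812-72319111 on the plus strand) is a recruited gene that fell, and Cubn (chr2:13491827-13492126 on the minus strand) is a risen gene with no listed site.
Pou4f2: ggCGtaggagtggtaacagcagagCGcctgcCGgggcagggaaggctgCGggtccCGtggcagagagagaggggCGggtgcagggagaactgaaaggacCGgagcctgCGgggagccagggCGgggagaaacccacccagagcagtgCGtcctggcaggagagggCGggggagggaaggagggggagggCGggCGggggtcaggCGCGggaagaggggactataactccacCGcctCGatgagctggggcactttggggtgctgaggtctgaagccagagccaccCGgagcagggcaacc
Klf4: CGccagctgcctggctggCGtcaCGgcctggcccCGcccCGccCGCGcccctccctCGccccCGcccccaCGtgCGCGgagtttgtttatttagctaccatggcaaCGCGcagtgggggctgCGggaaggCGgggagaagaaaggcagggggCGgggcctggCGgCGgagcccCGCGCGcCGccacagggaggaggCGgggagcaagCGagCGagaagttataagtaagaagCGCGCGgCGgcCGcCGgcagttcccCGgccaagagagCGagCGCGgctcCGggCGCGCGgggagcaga
Klf2: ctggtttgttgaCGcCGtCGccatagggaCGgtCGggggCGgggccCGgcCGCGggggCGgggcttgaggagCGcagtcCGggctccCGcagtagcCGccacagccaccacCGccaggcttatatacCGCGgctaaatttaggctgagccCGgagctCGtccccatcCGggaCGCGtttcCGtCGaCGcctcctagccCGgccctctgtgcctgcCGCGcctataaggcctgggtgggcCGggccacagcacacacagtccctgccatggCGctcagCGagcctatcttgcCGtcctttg
Cubn: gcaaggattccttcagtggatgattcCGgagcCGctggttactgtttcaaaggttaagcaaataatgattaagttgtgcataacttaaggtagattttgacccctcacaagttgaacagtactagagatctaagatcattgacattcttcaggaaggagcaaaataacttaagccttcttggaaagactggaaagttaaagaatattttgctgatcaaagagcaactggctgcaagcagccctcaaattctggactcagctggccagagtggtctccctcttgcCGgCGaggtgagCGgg
They hold 18, 40, 32 and 5 CG in that order, and Gbx2 holds 27 and Hoxa9 4. Of 27025 genes with a promoter in the table, 35.2% have at least 15 CG, with a median of 7. Among the tested genes, however, the median is 21 and 72.9% have at least 15, so the promoter of Pou4f2 is below the middle of that set, while those of Klf4, Klf2 and Gbx2 are above it. Only 76.8% of the tested genes had a promoter in the table, which limits a comparison of CG between risen and fallen genes, and its values are not given.

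Hox genes set position along the body axis and are classical PRC2 targets. Only 14 of 39 were tested, of which 11 rose while Hoxb13 fell, beside 6.88% risen and 7.18% fallen of all genes. Of the 14, 9 had passed the count filter through TKO EpiLCs alone, 8 of the 11 risen genes among them, so these had to be higher there, and of the 4 that passed in both groups 3 rose. The summed level of the 39 genes was 113 to 115 CPM in TKO EpiLCs, against 21.4 to 30.7 CPM in PclWT EpiLCs, and all 11 risen genes were above every J2WT and WT EpiLC library. Without PclWT EpiLC replicate 1, 12 rose and 1 fell. With no count minimum 21 rose, and with a minimum of 50 mean counts 3 did. Of the 39, 1 gene had no count in any TKO EpiLC library and 10 had none in any PclWT EpiLC library.

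The highest ratios were in the A cluster. Hoxa10 had 484 counts over the TKO EpiLC libraries and 2 over the PclWT EpiLC libraries, a ratio of 244 with a 95% counting interval of 67.1 to 2020. Hoxa9 had 285 and 2 counts, a ratio of 143 with an interval of 39.3 to 1190. Hoxa5 had 8.99, 8.35 and 8.09 CPM in TKO EpiLCs, against 1.203, 0.614 and 0.4004 CPM in PclWT EpiLCs (log2 fold change 3.48 ± 0.31, adjusted p = 0.000583). Hoxa3 rose too (3.19 ± 0.24), but Hoxa3 and Hoxa5 overlap on the same strand, so reads of that stretch may be shared. Hoxc4 and Hoxd13 of the other clusters were at 2.65 ± 0.25 and 3.06 ± 0.29. On chromosome 11, whose genes were lowered in TKO over PclWT, Hoxb9 and Hoxb1 rose (1.72 ± 0.17 and 1.88 ± 0.28). Hoxb13 had 1.25, 1.24 and 1.84 CPM in TKO EpiLCs, against 7.33, 3.99 and 3.603 CPM in PclWT EpiLCs (log2 fold change -1.85 ± 0.37, adjusted p = 0.00946; adjusted p = 0.0526 by edgeR without TKO EpiLC replicate 1), and was above J2WT and WT EpiLCs, at means of 0.209 and 0.3196 CPM.

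Meis1, like Meis2 the gene of a Hox cofactor, had 7.03, 7.52 and 6.81 CPM in TKO EpiLCs, against 0, 0.307 and 0.801 CPM in PclWT EpiLCs (log2 fold change 4.15 ± 0.51, adjusted p = 0.00166). Of 23 tested homeobox and paired genes of a list of 81, 10 rose (43.5%) and 2 fell (8.7%), beside 6.88% and 7.18% of all genes. Of the 10, 6 had passed the count filter through TKO EpiLCs alone. Of 20 tested GATA, SOX and FOX factors of 43, 12 rose (60%) and 1 fell (5%), beside 6.88% and 7.18% of all genes. Their median was 1.45. Of the 12, 8 had passed the count filter through TKO EpiLCs alone, and of the 10 that passed in both groups 4 rose. All 12 were above every library of the other wild-type EpiLCs, as were 28.7% of all genes tested. Sox1, an early neural factor, had 89.8, 86.4 and 85.7 CPM in TKO EpiLCs, against 3.17, 3.48 and 2.702 CPM in PclWT EpiLCs (log2 fold change 4.76 ± 0.14, adjusted p = 6.54e-05). Pax6, another neural gene, had 4.45, 3.401 and 3.69 CPM in TKO EpiLCs, against 1.53, 1.74 and 1.201 CPM in PclWT EpiLCs (log2 fold change 1.33 ± 0.23, adjusted p = 0.0057). Of 7 neuroectoderm genes tested of 19, 2 rose and Olig2 fell.

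Most tested genes of the primitive endoderm, the extraembryonic layer that forms beside the epiblast in the blastocyst, rose. Of 15 tested of 18, 11 rose (73.3%) and none fell, beside 6.88% and 7.18% of all genes. The median log2 fold change was 2.11, and 5 of the 11 had passed the filter through TKO EpiLCs alone, so these had to be higher there. Of the 10 that passed in both groups 6 rose. Summed over the list the level was 1590 to 1670 CPM in TKO EpiLCs, against 706 to 971 CPM in PclWT EpiLCs. All 11 were above every J2WT and WT EpiLC library, and 10 rose without PclWT EpiLC replicate 1. More cells of this type and more RNA per cell cannot be told apart in bulk RNA.

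Gata6, the factor that directs the lineage, had 21.5, 25.1 and 30.6 CPM in TKO EpiLCs, against 0.438, 1.02 and 0.3003 CPM in PclWT EpiLCs (log2 fold change 5.38 ± 0.34, adjusted p = 0.000228). Gata4 had 15.8, 14.8 and 15.9 CPM in TKO EpiLCs, against 0.656, 1.43 and 1.101 CPM in PclWT EpiLCs (log2 fold change 3.8 ± 0.23, adjusted p = 0.000211), and Sox17 had 5.16, 5.05 and 5.53 CPM in TKO EpiLCs, against 0.875, 0 and 0.1001 CPM in PclWT EpiLCs (log2 fold change 3.97 ± 0.63, adjusted p = 0.0041). Gata4 and Sox7 lie on the raised part of chromosome 14 and Sox17 on chromosome 1, while Gata6 is on chromosome 18. Sox7 had 132 and 3 counts in TKO and PclWT EpiLCs, a ratio of 44.3 with an interval of 14.8 to 217. Among surface proteins, Pdgfra, a receptor that marks the lineage, had 14.7, 14.2 and 16.9 CPM in TKO EpiLCs, against 1.203, 2.15 and 1.802 CPM in PclWT EpiLCs (log2 fold change 3.09 ± 0.21, adjusted p = 0.000277). Cubn, the endocytic receptor cubilin, had 36.6, 36.3 and 30.8 CPM in TKO EpiLCs, against 0.109, 0.614 and 0.701 CPM in PclWT EpiLCs (log2 fold change 6.09 ± 0.33, adjusted p = 0.000139). J2WT EpiLCs were closer to TKO than to PclWT on the log scale for Cubn, at 12 to 14.7 CPM, and WT EpiLCs were at 2.68 to 3.87 CPM. Dab2, an endocytic adaptor, rose too (1.39 ± 0.16, adjusted p = 0.0013).

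Of the collagen IV and laminin chains in the list, which build the basement membrane, Col4a1, Col4a2, Lama1 and Lamb1 rose, while Lamc1 did not pass the test (1.04 ± 0.34, adjusted p = 0.051). Col4a1 had 129.7, 118 and 136 CPM in TKO EpiLCs, against 23.4, 47.99 and 41.04 CPM in PclWT EpiLCs (log2 fold change 1.73 ± 0.25, adjusted p = 0.00276), and its neighbour Col4a2 was at 2.27 ± 0.2, adjusted p = 0.000581. Lama1, a laminin chain at a recruited site, had 32.8, 37.4 and 37.5 CPM in TKO EpiLCs, against 3.5, 11.1 and 9.61 CPM in PclWT EpiLCs (log2 fold change 2.11 ± 0.35, adjusted p = 0.00499). Lamb1 rose by 1.06 ± 0.19 and was at 0.88 without PclWT EpiLC replicate 1, under the fold limit.

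**Figure D4:**
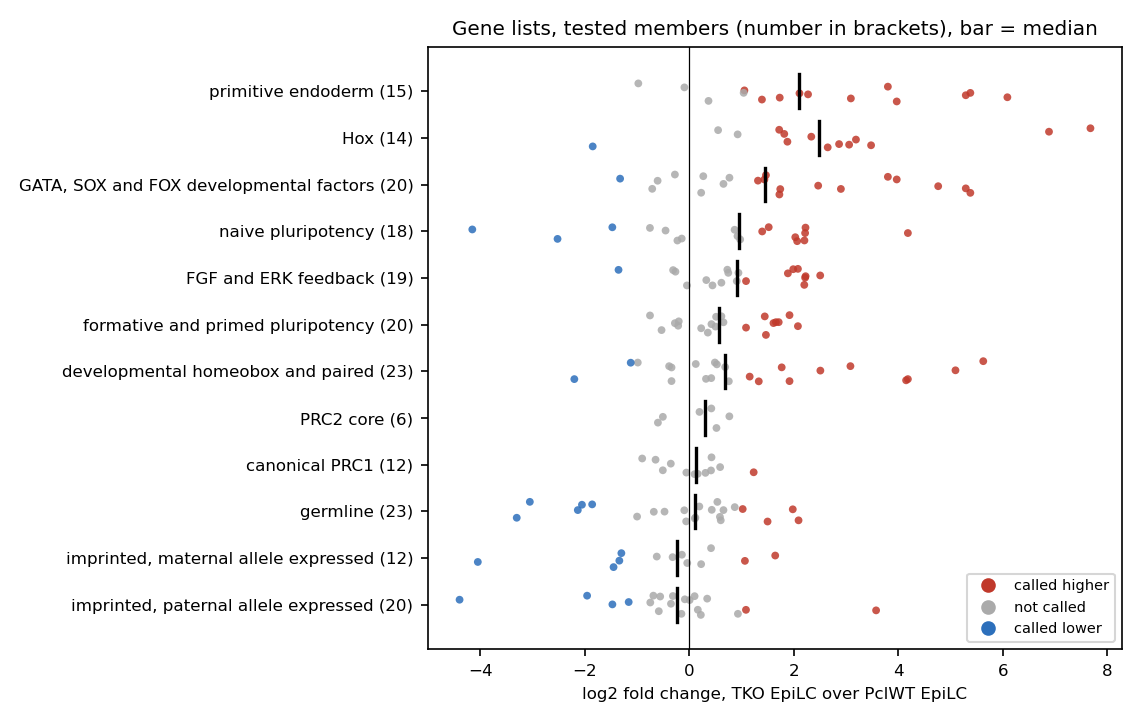
Log2 fold change in TKO over PclWT EpiLCs of the tested members of 12 gene lists, 1 point per gene, with the number tested in brackets and the median as a bar. Red points rose, blue points fell and grey points did not pass. Red are 11 of 15 primitive endoderm and 11 of 14 Hox genes, of which 5 and 8 passed the count filter through TKO EpiLCs alone. All 6 PRC2 core genes passed it in both groups, and none is red.

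More naive pluripotency genes, which EpiLCs normally lower, rose than fell, where 6.88% of all genes rose and 7.18% fell. Of 18 tested, 8 rose (Tbx3, Klf4, Klf5, Esrrb, Gbx2, Tfcp2l1, Nr0b1 and Fgf4) and 3 fell (Klf2, Dppa3 and Tcl1), with a median of 0.95, and the list summed to 959 to 1030 CPM in TKO EpiLCs, against 546 to 689 CPM in PclWT EpiLCs. Of the 8, 5 were above every J2WT and WT EpiLC library. Against these lines 7 and 6 of the 18 rose and 2 and 2 fell, with medians of 0.48 and 0.01. Over all genes 12.3% and 10.1% rose and 8.51% and 7.23% fell against them. Without PclWT EpiLC replicate 1, 9 rose, Nanog among them, and 3 fell.

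Tbx3, a T-box factor at a recruited site, had 44.1, 39.98 and 41.7 CPM in TKO EpiLCs, against 7.22, 8.49 and 10.8 CPM in PclWT EpiLCs (log2 fold change 2.2 ± 0.16, adjusted p = 0.000345). Klf4, also at a recruited site, had 28.3, 31.4 and 32.9 CPM in TKO EpiLCs, against 5.25, 8.903 and 7.31 CPM in PclWT EpiLCs (log2 fold change 2.07 ± 0.19, adjusted p = 0.000689), and J2WT and WT EpiLCs were at means of 4.89 and 4.94 CPM. Esrrb, an orphan nuclear receptor, had 185, 169 and 193 CPM in TKO EpiLCs, against 33.6, 45.7 and 51.05 CPM in PclWT EpiLCs (log2 fold change 2.03 ± 0.17, adjusted p = 0.000461). TKO EpiLCs were above all other wild-type EpiLC libraries for these genes and for Klf5 (2.23 ± 0.1) and Tfcp2l1 (1.4 ± 0.37), although Tfcp2l1 lost its call when any of the 3 TKO EpiLC libraries was left out (adjusted p = 0.0771 to 0.091 by edgeR). Nanog had 194, 189 and 212 CPM in TKO EpiLCs, against 130.3, 87.9 and 86.9 CPM in PclWT EpiLCs and did not pass the fold limit (0.92 ± 0.18, adjusted p = 0.00933), and Zfp42, the REX1 gene, did not differ beyond the spread (-0.14 ± 0.13, adjusted p = 0.426).

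For other naive genes PclWT was the line that differed. Gbx2 had 75.3, 76.3 and 74.9 CPM in TKO EpiLCs, against 5.14, 3.38 and 3.603 CPM in PclWT EpiLCs (log2 fold change 4.18 ± 0.18, adjusted p = 9.41e-05), while J2WT EpiLCs had 50.9 to 54.6 and WT EpiLCs 78.3 to 83.5 CPM. Klf2, a Krüppel-like factor, had 28.9, 32.9 and 32.2 CPM in TKO EpiLCs, against 229.5, 148 and 145 CPM in PclWT EpiLCs (log2 fold change -2.52 ± 0.21, adjusted p = 0.000488), and J2WT and WT EpiLCs were at means of 35.5 and 30.2 CPM. Dppa3, the maternal factor STELLA, had 3.29, 2.68 and 3.404 CPM in TKO EpiLCs, against 80.4, 39.4 and 41.9 CPM in PclWT EpiLCs (log2 fold change -4.15 ± 0.35, adjusted p = 0.000495), and was at means of 3.64 and 4.53 CPM in J2WT and WT EpiLCs. Tcl1, a coactivator of AKT, likewise fell against PclWT only (-1.47 ± 0.2), within the range of the other lines. Nr0b1 rose by 1.52 ± 0.26 against PclWT and was 1.00 and 0.47 log2 units below J2WT and WT EpiLCs.

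Of 20 formative genes tested of 21, 8 rose against PclWT EpiLCs (40%) and none fell, beside 6.88% and 7.18% of all genes, and the list summed to 3860 to 4070 CPM in TKO EpiLCs, against 2190 to 2260 CPM in PclWT EpiLCs. Against J2WT EpiLCs 3 of 21 rose and 11 fell, beside 12.3% and 8.51% of all genes. Against WT EpiLCs 4 rose and 11 fell, beside 10.1% and 7.23% of all genes. Fgf5, the usual marker of EpiLCs, had 3.47, 3.81 and 4.68 CPM in TKO EpiLCs, against 0.766, 0.921 and 1.001 CPM in PclWT EpiLCs (log2 fold change 2.08 ± 0.23, adjusted p = 0.00122). In J2WT and WT EpiLCs it had 57.1 to 59.04 and 41.6 to 45.95 CPM. Otx2, a driver of the formative state on chromosome 14, had 12.8, 12.9 and 14.04 CPM in TKO EpiLCs, against 3.5, 3.58 and 3.103 CPM in PclWT EpiLCs (log2 fold change 1.92 ± 0.14, adjusted p = 0.000348), and J2WT and WT EpiLCs had 112 to 122 and 156 to 162 CPM. By these markers both TKO and PclWT EpiLCs were short of the level of the other EpiLC lines, with PclWT the lower. Pou3f1 did not differ between them (-0.2 ± 0.21, adjusted p = 0.508), and was at 558 and 467 CPM in J2WT and WT EpiLCs.

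Dnmt3a, a de novo DNA methyltransferase, was higher than in every wild-type EpiLC library, with 1449, 1469 and 1553 CPM in TKO EpiLCs, against 387, 503 and 488 CPM in PclWT EpiLCs (log2 fold change 1.66 ± 0.13, adjusted p = 0.000426). Sox3, Sall2 and Etv4 also rose above all of them (1.47 ± 0.13, 1.61 ± 0.14 and 1.09 ± 0.12), Sall2 on the raised part of chromosome 14 and Etv4 on chromosome 11. Car4 rose against PclWT (1.71 ± 0.21) and was within the range of the other lines. Of the genes that rose when J2WT ESCs became EpiLCs, 273 of 1784 tested were higher in TKO than in PclWT EpiLCs (15.3%) and 174 lower (9.75%). Of those that fell, 168 of 1523 were higher (11%) and 160 lower (10.5%), beside 6.88% and 7.18% of all genes. Against WT EpiLCs the first set had 224 higher and 406 lower of 1927, and the second 361 higher and 95 lower of 1484. Over all genes 10.1% rose and 7.23% fell there.

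**Figure D5:**
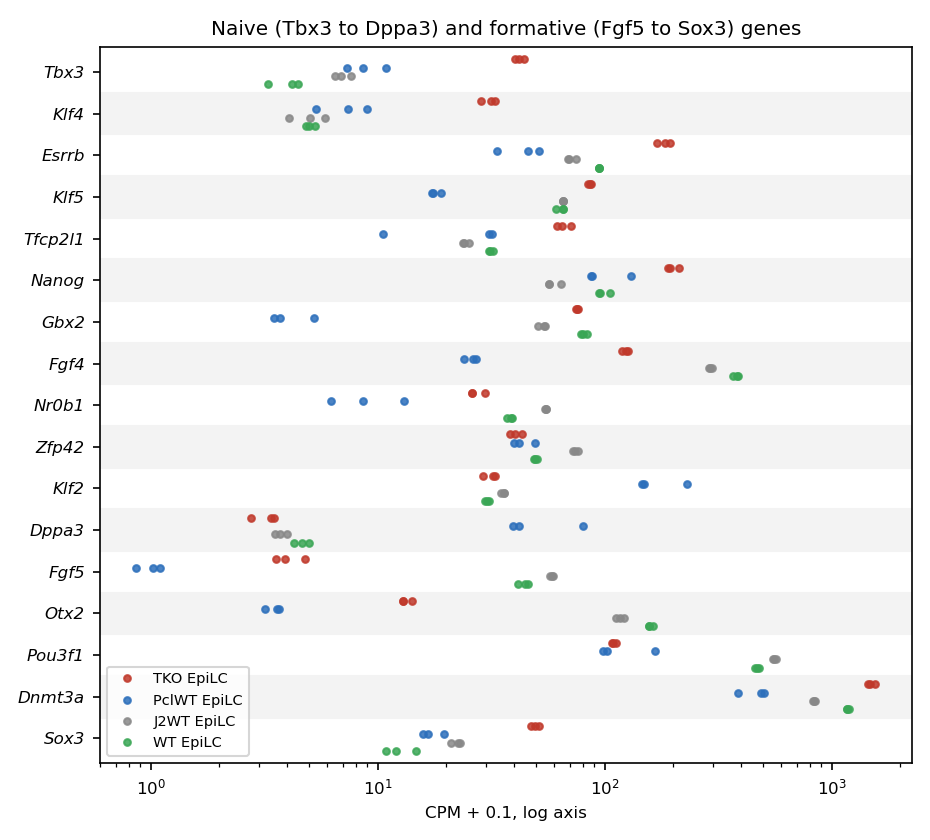
Levels of 12 naive genes (Tbx3 to Dppa3) and 5 formative genes (Fgf5 to Sox3) in TKO (red), PclWT (blue), J2WT (grey) and WT (green) EpiLCs, 1 point per library, as CPM plus 0.1 on a log axis. Red points exceed all others for Tbx3, Klf4 and Esrrb, while for Fgf5 and Otx2 they lie between PclWT and the other lines.

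Of 19 tested genes of FGF signalling and its ERK feedback, 8 rose against PclWT (42.1%), 1 fell (5.26%) and 10 were not called, with a median of 0.91. Of all genes 6.88% rose and 7.18% fell. Of the 8 risen genes, 2 had passed the count filter through TKO EpiLCs alone, and only 2 exceeded the other wild-type lines. This direction did not hold against those lines. Of the list, 2 of 23 genes rose and 5 fell against J2WT EpiLCs, beside 12.3% and 8.51% of all genes. Against WT EpiLCs 2 of 21 rose and 8 fell, beside 10.1% and 7.23% of all genes. Fgf4, the ligand that ESCs make, had 119, 124 and 126 CPM in TKO EpiLCs, against 27.1, 26.2 and 23.9 CPM in PclWT EpiLCs (log2 fold change 2.22 ± 0.11, adjusted p = 0.000114). Its level in TKO EpiLCs was below that of J2WT and WT EpiLCs. Dusp6, an ERK phosphatase induced by the pathway, had 306, 322 and 330.2 CPM in TKO EpiLCs, against 55.02, 53.6 and 55.4 CPM in PclWT EpiLCs (log2 fold change 2.51 ± 0.1, adjusted p = 8.48e-05). Spry2, an inhibitor of receptor tyrosine kinase signalling, rose by 2.2 ± 0.12. Against J2WT and WT EpiLCs the feedback genes Spry4 and Dusp4 were lower in TKO, Spry4 by 0.99 and 1.35 and Dusp4 by 2.05 and 2.08 log2 units, though they rose against PclWT (1.99 ± 0.19 and 1.89 ± 0.17). Egr1, an immediate early gene at a displaced site, fell against all of them (-1.35 ± 0.14, adjusted p = 0.000833). PclWT EpiLCs had the lowest mean of these lines for Dusp4, Dusp6, Spry2 and Spry4.

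The lists of the Nodal and Wnt families are set beside the 6.88% risen and 7.18% fallen of all genes. Of 19 Nodal and activin genes 2 rose (10.5%), Inhbb among them, and Lefty1 fell (5.26%). Lefty1, a Nodal inhibitor on chromosome 1, had 95.4, 102 and 120.1 CPM in TKO EpiLCs, against 580.1, 352 and 328 CPM in PclWT EpiLCs (log2 fold change -2.03 ± 0.25, adjusted p = 0.00152), and J2WT and WT EpiLCs were at 108 and 45.2 CPM. Of 24 Wnt genes 3 rose (12.5%) and 2 fell (8.33%). Wnt8a, a ligand of the primitive streak, had 2.76, 3.09 and 1.702 CPM in TKO EpiLCs, against 15.6, 20.1 and 18.02 CPM in PclWT EpiLCs (log2 fold change -2.83 ± 0.22, adjusted p = 0.000404), within the range of the other lines. Of 14 BMP and Id genes 3 rose (21.4%), and only 1 did without PclWT EpiLC replicate 1.

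Of 23 epithelial and mesenchymal genes 5 rose (21.7%) and none fell, beside 6.88% and 7.18% of all genes. Cdh1, E-cadherin, had 591, 585 and 612 CPM in TKO EpiLCs, against 218, 278 and 288 CPM in PclWT EpiLCs (log2 fold change 1.15 ± 0.13, adjusted p = 0.00129) and was still 0.23 and 0.40 log2 units below J2WT and WT EpiLCs. Vim, an intermediate filament of mesenchymal cells at a recruited site, had 145, 137 and 146 CPM in TKO EpiLCs, against 53.5, 36.02 and 35.9 CPM in PclWT EpiLCs (log2 fold change 1.73 ± 0.18, adjusted p = 0.00101), and Zeb2, a repressor of Cdh1, was at 3.00 ± 0.26, adjusted p = 0.000516. Of 20 cell cycle genes 4 rose (20%) and 1 fell (5%). Ccnd2, cyclin D2, had 142, 146 and 142 CPM in TKO EpiLCs, against 11.7, 18.3 and 17.02 CPM in PclWT EpiLCs (log2 fold change 3.15 ± 0.18, adjusted p = 0.000148), above every J2WT and WT EpiLC library. Ccnd1, cyclin D1, rose within the range of those lines (1.79 ± 0.23), and Rb1, the retinoblastoma gene, lies in the segment of chromosome 14 where PclWT was below WT (1.99 ± 0.22).

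Imprinted and germline genes moved both ways, where 6.88% of all genes rose and 7.18% fell. Of 12 imprinted genes expressed from the maternal allele 2 rose (16.7%) and 4 fell (33.3%). Of 20 expressed from the paternal allele 2 rose (10%) and 4 fell (20%). In each list 1 rose and 3 fell without PclWT EpiLC replicate 1. Mest, paternally expressed, had 4.36, 3.298 and 3.26 CPM in TKO EpiLCs, against 54.03, 83.1 and 89.5 CPM in PclWT EpiLCs (log2 fold change -4.39 ± 0.25, adjusted p = 0.000155), and J2WT and WT EpiLCs were at means of 203 and 119 CPM. H19, a maternally expressed noncoding RNA, had 1.69, 0.618 and 1.28 CPM in TKO EpiLCs, against 20.2, 19.96 and 18.6 CPM in PclWT EpiLCs (log2 fold change -4.04 ± 0.28, adjusted p = 0.000275). Grb10 on chromosome 11 fell against PclWT (-1.3 ± 0.18) and was 0.81 log2 units above J2WT EpiLCs. Zdbf2 on chromosome 1 rose (1.61 ± 0.37), a call that was lost without any of the 3 TKO EpiLC libraries (adjusted p = 0.0518 to 0.0594 by edgeR), as did Peg13 (3.58 ± 0.41), whose span lies inside Trappc9, so that intronic reads may be counted with it.

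Of 23 germline genes 4 rose (17.4%) and 5 fell (21.7%), beside 6.88% and 7.18% of all genes. Without PclWT EpiLC replicate 1, 3 rose and 3 fell. Tex19.1, a gene of germ cells and pluripotent cells on chromosome 11, had 50.7, 55.1 and 51.1 CPM in TKO EpiLCs, against 699, 416 and 386 CPM in PclWT EpiLCs (log2 fold change -3.3 ± 0.26, adjusted p = 0.000396). Tex19.2, its close paralogue beside it, had 0.979, 0.618 and 0.425 CPM in TKO EpiLCs, against 32.6, 18.8 and 19.7 CPM in PclWT EpiLCs (log2 fold change -5.08 ± 0.37, adjusted p = 0.00033), and reads that fit both genes could not be assigned. Nuggc and Mmrn2 on chromosome 14 fell as well (-4.97 ± 0.49 and -4.86 ± 0.4) and were below every library of the other lines. Mmrn2, an extracellular protein of blood vessels, lies at 34.4 Mb, in the part of the chromosome with a median near 0, and Nuggc at 65.6 Mb, in the raised part.

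The other lists are given beside the 6.88% risen and 7.18% fallen of all genes. Of 19 p53 targets 3 rose (15.8%), of 20 genes of the integrated stress response 4 (20%), of 12 general pluripotency genes 1 (8.33%) and of 15 DNA methylation genes 3 (20%), with none fallen in these. The general pluripotency genes had 3 risen without PclWT EpiLC replicate 1. Of 11 primitive streak genes 4 rose (36.4%) and 2 fell, of 8 trophoblast genes 2 rose (25%) and 1 fell, of 3 genes of 2-cell-like cells 2 rose, and of 2 clustered protocadherins 1 rose. All of these risen streak, trophoblast, 2-cell-like and protocadherin genes had passed the count filter through TKO EpiLCs alone, so they had to be higher there. Of 6 T-box genes 2 rose and 1 fell, and without PclWT EpiLC replicate 1, 3 rose and none fell. Of 23 glycolysis and hypoxia genes 2 rose (8.7%) and 1 fell, and of 8 interferon genes 2 fell. Of 9 fibroblast genes tested of 20, Vim rose and 2 fell; the list summed to 1040 to 1110 CPM in TKO EpiLCs, against 376 to 1010 CPM in PclWT EpiLCs, and 4 of its genes had no count in TKO and 6 none in PclWT EpiLCs. Of 11 genes of the mitochondrial genome 4 fell and none rose. They took 1.10% to 1.24% of the counts in TKO EpiLCs, against 2.02% to 2.25% in PclWT EpiLCs, 1.03% to 1.28% in J2WT and 1.82% to 2.07% in WT EpiLCs. The part of these shares in the results above was not tested.

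Whether the TKO effect depended on the stage was tested as an interaction over the EpiLC and ESC libraries of TKO and PclWT, which uses the EpiLC libraries of the comparison above again. Of 12825 genes, 547 (4.27%) had a higher effect in EpiLCs and 412 (3.21%) a lower one, and without PclWT EpiLC replicate 1 these were 654 (5.11%) and 441 (3.45%) of 12795. Within ESCs 827 genes rose (6.64%) and 883 fell (7.09%) of 12453. The effect on the primitive endoderm list was higher in EpiLCs for 9 of 15 genes and lower for none, and in ESCs 4 of its 12 tested genes rose and 3 fell. In the Hox list 7 of 14 genes had a higher effect in EpiLCs and none a lower one. Only 9 Hox genes reached the count minimum in ESCs. In the EpiLC comparison 9 Hox and 5 primitive endoderm genes had passed the filter through TKO EpiLCs alone. Such genes could hardly come out lower, so these counts are no test of a stage effect.

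Gata6 had 0.504, 0.543 and 0.838 CPM in TKO ESCs, against 0.9695, 0.963 and 0.779 CPM in PclWT ESCs, so neither ESC group came near the TKO EpiLC level, and its effect was higher in EpiLCs by 5.92 ± 0.56, adjusted p = 5.49e-05. Pdgfra had 1.11, 0.652 and 1.47 CPM in TKO ESCs, against 3.005, 2.57 and 1.78 CPM in PclWT ESCs, and fell there, and the interaction was 4.3 ± 0.39, adjusted p = 4.34e-05. Dab2 also fell in TKO ESCs (-2.06) and rose in EpiLCs (interaction 3.44 ± 0.21). Cubn had 4 counts in TKO ESCs and 10 in PclWT ESCs, Gsx1 0 and 1, Ndnf 1 and 5, Hoxa10 14 and 5, Hoxa9 20 and 6, and Oprd1 1 and 12, so the size of their fitted interactions rests on few reads, though adjusted p-values were between 0.000161 (Cubn) and 0.0497 (Gsx1) by edgeR. Leaving out single libraries took the calls of Gsx1, Hoxa9, Hoxa10, Ndnf and Oprd1, and without PclWT ESC replicate 2 Hoxa10 was at 2.47 and without PclWT ESC replicate 1 Ndnf was at 3.18. Amot, a regulator of Hippo signalling on the X chromosome, had enough reads in all groups. It had 107, 106 and 116 CPM in TKO EpiLCs, against 7.11, 17.2 and 16.2 CPM in PclWT EpiLCs, and 3.02, 3.04 and 3.67 CPM in TKO ESCs, against 6.11, 8.99 and 9.796 CPM in PclWT ESCs, with an interaction of 4.34 ± 0.4, adjusted p = 4.93e-05.

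The interaction passed both limits for the pluripotency genes Tbx3, Fgf4 and Dnmt3a. Tbx3 had 529, 536 and 525 CPM in TKO ESCs, against 319, 360.2 and 350.0 CPM in PclWT ESCs, a difference of 0.6 on the log2 scale that did not pass the fold limit, and the interaction was 1.6 ± 0.16, adjusted p = 9.75e-05. Dnmt3a fell in TKO ESCs and rose in TKO EpiLCs, with 82.3, 86.8 and 88.4 CPM in TKO ESCs, against 196, 198 and 209.9 CPM in PclWT ESCs (interaction 2.91 ± 0.15, adjusted p = 1.15e-06). Fgf4 was at 0.28 in ESCs (interaction 1.94 ± 0.1). In the same way Ccnd2 and Cdh1 had higher effects in EpiLCs (2.25 ± 0.2 and 1.35 ± 0.14), and Klf2 and Lefty1 lower ones (-1.9 ± 0.21 and -2.56 ± 0.27). The germline list had 11 of 22 genes with a higher effect in EpiLCs and none with a lower one. In TKO ESCs 12 of 22 of them fell, while in TKO EpiLCs 5 of 23 did.

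Some of the 10 genes named for the size of a lower effect in EpiLCs had few counts there. Elobl had 0 counts in TKO and 51 in PclWT EpiLCs, which is at least 16.9-fold lower when the group's floor is set at 3 counts, and 15.7, 15.5 and 16.3 CPM in TKO ESCs, against 39.1, 33.6 and 34.1 CPM in PclWT ESCs. Acss1, a mitochondrial acetyl-CoA synthetase, had 3.65, 3.09 and 4.25 CPM in TKO EpiLCs, against 8.42, 9.01 and 11.2 CPM in PclWT EpiLCs, and 26.9, 30.5 and 26.9 CPM in TKO ESCs, against 3.88, 4.07 and 5.23 CPM in PclWT ESCs (interaction -4.09 ± 0.23, adjusted p = 1.94e-06). Ndrg1 fell in EpiLCs and rose in ESCs (1.14), with an interaction of -4.03 ± 0.36, adjusted p = 3.62e-05. Sp5, a Wnt target, had 2 and 37 counts in TKO and PclWT EpiLCs (ratio 18.4 lower, interval 4.74 to 157) and 10.5, 7.82 and 7.33 CPM in TKO ESCs, against 3.98, 3.96 and 5.01 CPM in PclWT ESCs. Ppp1r14d, Xaf1, Trpm1, Cdhr1, Oasl2 and Parp10 were the others named, at interactions of -5.31, -5.20, -5.03, -3.85, -3.95 and -3.71. Xaf1 had 2 and 41 counts in TKO and PclWT EpiLCs (ratio 20.4 lower, interval 5.29 to 174). Trpm1 had 2 and 8 counts in TKO and PclWT EpiLCs, a difference within the counting interval, and 48.7, 48.8 and 44.3 CPM in TKO ESCs, against 4.46, 5.67 and 4.79 CPM in PclWT ESCs.

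QKO EpiLCs lack JARID2 in addition to the Polycomb-like proteins. QKO and TKO are separate lines, so line and genotype cannot be told apart here either. Against TKO EpiLCs 194 of 12762 genes rose (1.52%) and 421 fell (3.3%), and the TKO libraries are those used above. QKO EpiLC replicate 2 stood apart by its rRNA genes, at 4.15% of its counts, where replicates 1 and 3 had 0.426% and 0.358%. The named n-R5-8s1 is such a gene, and Mir6236 and Lars2 were high in the same library. Lars2 had 324, 3269 and 282 CPM in QKO EpiLCs, against 172, 153 and 132 CPM in TKO EpiLCs, and its log2 fold change without that library was 0.96, under the fold limit.

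Of 14 primitive endoderm genes tested 5 fell and none rose in QKO over TKO EpiLCs, beside 3.3% fallen and 1.52% risen of all genes. Cubn had 5.17, 3.505 and 5.301 CPM in QKO EpiLCs, against 36.6, 36.3 and 30.8 CPM in TKO EpiLCs (log2 fold change -2.9 ± 0.12, adjusted p = 3.05e-14). Gata6 had 12.2, 11.5 and 13.5 CPM in QKO EpiLCs, against 21.5, 25.1 and 30.6 CPM in TKO EpiLCs (log2 fold change -1.03 ± 0.12, adjusted p = 1.83e-07), and Pdgfra was at -1.34 ± 0.14, adjusted p = 4.65e-08. Without TKO EpiLC replicate 3 or QKO EpiLC replicate 2 Gata6 was at -0.92 and -0.99, under the fold limit. They stayed above PclWT EpiLCs, whose Gata6 and Pdgfra means were 0.587 and 1.72 CPM. Of 16 Hox genes tested 7 rose and 2 fell, beside the same shares of all genes. Hoxa9 had 23.8, 23.6 and 26.3 CPM in QKO EpiLCs, against 11.6, 10.4 and 7.66 CPM in TKO EpiLCs (log2 fold change 1.26 ± 0.12, adjusted p = 7.78e-09), while Hoxb1 had 1.01, 0.905 and 0.855 CPM in QKO EpiLCs, against 8.72, 8.66 and 9.22 CPM in TKO EpiLCs (log2 fold change -3.26 ± 0.21, adjusted p = 3.08e-11).

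In QKO over TKO EpiLCs 8 of 18 naive genes rose and 2 fell, and of 20 formative genes 1 rose and 6 fell, while the others were not called. Over all genes 1.52% rose and 3.3% fell. Tbx3 had 138, 147 and 145 CPM in QKO EpiLCs, against 44.1, 39.98 and 41.7 CPM in TKO EpiLCs (log2 fold change 1.75 ± 0.05, adjusted p = 1.23e-17). Prdm14, a naive repressor of formative genes at a recruited site, had 15.9, 14.5 and 15.8 CPM in QKO EpiLCs, against 3.38, 2.68 and 3.97 CPM in TKO EpiLCs (log2 fold change 2.21 ± 0.15, adjusted p = 5.38e-11). Esrrb rose (1.03 ± 0.05, and 0.99 without TKO EpiLC replicate 2) and Dppa3 fell further (-3.08 ± 0.34). The formative gene that rose was Otx2, with 58.2, 56.6 and 62.4 CPM in QKO EpiLCs, against 12.8, 12.9 and 14.04 CPM in TKO EpiLCs (log2 fold change 2.15 ± 0.08, adjusted p = 1.18e-15).

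Mest, low in TKO EpiLCs, was in QKO EpiLCs between the means of PclWT and WT EpiLCs, with 112, 102 and 103 CPM in QKO EpiLCs, against 4.36, 3.298 and 3.26 CPM in TKO EpiLCs (log2 fold change 4.81 ± 0.09, adjusted p = 1.56e-20). Ccnd2 was the reverse, with 14.7, 19.9 and 16.9 CPM in QKO EpiLCs, against 142, 146 and 142 CPM in TKO EpiLCs (log2 fold change -3.08 ± 0.06, adjusted p = 8.36e-20), and PclWT EpiLCs had 11.7 to 18.3 CPM. Meg3, a maternally expressed noncoding RNA, had 0.608, 0.678 and 0.342 CPM in QKO EpiLCs, against 9.08, 7.93 and 5.82 CPM in TKO EpiLCs (log2 fold change -3.87 ± 0.29, adjusted p = 2.38e-10), and it was at means of 407 and 376 CPM in J2WT and WT EpiLCs. Insm1, a zinc finger factor of neuroendocrine cells, had 4.36, 4.297 and 3.33 CPM in QKO EpiLCs, against 36.2, 33.9 and 36.03 CPM in TKO EpiLCs (log2 fold change -3.18 ± 0.11, adjusted p = 1.06e-15). Hivep2, Grm6, Frem2 and Epha1 fell too, at -4.09 ± 0.21, -3.85 ± 0.46, -3.26 ± 0.18 and -3.24 ± 0.09. Aqp3, a glycerol channel, and Lpar1, a receptor for lysophosphatidic acid, rose at recruited sites (2.96 ± 0.12 and 2.36 ± 0.11), with Tfap2a and Hivep3 at 2.72 ± 0.4 and 2.18 ± 0.3. On chromosomes 1, 11 and 14 the medians of QKO over TKO EpiLCs were 0.10, 0.04 and 0.05. The largest shifts between these lines were on chromosomes 6, 8 and X, with medians of -0.124, -0.117 and -0.104.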

How the data were processed

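Poly(A) RNA was sequenced without strand marking in 36 libraries, 3 in each of 12 groups. The authors deposited raw counts of reads per gene, made with STAR against mouse GRCm38, with no filter or normalization. The unstranded column was used here for 55401 genes, of which 55141 were given symbols from a GENCODE annotation of that build. Reads not assigned to 1 gene (23.59% to 28.81% in TKO and PclWT EpiLCs) and the other columns were left out. Where genes overlap, as Phf1 and Cuta, Hoxa3 and Hoxa5, Atxn1 and Gmpr, or Peg13 and Trappc9, and for the paralogues Tex19.1 and Tex19.2, the division of reads is uncertain.

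Genes whose normalized counts averaged 15 or more over the libraries compared were tested with edgeR 4.0.16 (TMM, quasi-likelihood test) in R 4.3.3, and a call needed an adjusted p below 0.05 together with a log2 fold change beyond 1 or -1. The fits held 6 libraries for TKO over PclWT EpiLCs and for QKO over TKO EpiLCs and 12 for the interaction with stage. The scripts were tested on simulated data. DESeq2 1.42.0, other normalizations, count minimums, scaling and testing outside chromosomes 1, 11 and 14, a spread shared over 18 libraries, the replicate number as a block and leaving out each library were alternatives. The comparisons with J2WT and WT EpiLCs, and the subtraction of chromosome medians, were chosen after seeing the data. The members and gene lists were chosen with earlier results of these data known.

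Named genes were the members of the lists, per direction the 10 called genes of largest change with no overlap between the groups' libraries, if also called without PclWT EpiLC replicate 1 (clone-type names left out), 5 per direction at recruited and displaced sites, and the 3 most abundant called genes per direction on chromosomes 1, 11 and 14; some of these are not reported here. For genes with 1 to 3 counts in a group the ratio of counts is given with an exact 95% interval, and against 0 counts the floor was 3 counts over the group; both cover counting error only. The depth of 6784578 to 10599906 counts per EpiLC library leaves genes under about 1 CPM with few reads.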

Additional observations from a re-analysis of the deposited data

Results flagged for a closer look

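The TKO effect differed between EpiLCs and ESCs, by the interaction in edgeR's quasi-likelihood fit over 12 libraries, for these named genes, given as the log2 effect in EpiLCs minus that in ESCs. Genes of the primitive endoderm had higher effects in EpiLCs, with Cubn at 7.36, Gata6 at 5.92, Pdgfra at 4.30 and Dab2 at 3.44. Among developmental regulators Gsx1 was at 6.97, Hoxa10 at 6.29 and Hoxa9 at 5.24. Ndnf was at 6.99, Amot at 4.34 and Oprd1 at 4.18. Dnmt3a was at 2.91, Ccnd2 at 2.25, Fgf4 at 1.94, Tbx3 at 1.6 and Cdh1 at 1.35.

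Lower effects in EpiLCs were found for Elobl at -5.93, Ppp1r14d at -5.31, Xaf1 at -5.20, Trpm1 at -5.03, Sp5 at -4.94, Acss1 at -4.09, Ndrg1 at -4.03, Oasl2 at -3.95, Cdhr1 at -3.85 and Parp10 at -3.71. Lefty1 was at -2.56 and Klf2 at -1.90. For Cubn, Ndnf, Gsx1, Hoxa9, Hoxa10, Oprd1 and Oasl2 the ESC groups had at most 20 counts over 3 libraries, so the size of these values is uncertain. PclWT is the reference at both stages, and its EpiLC replicate 1 stood apart.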

How the results depend on the processing

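Among named genes, 104 of 112 in TKO over PclWT EpiLCs, 22 of 27 in the stage comparison and 19 of 24 in QKO over TKO EpiLCs kept direction and side of the limits under all alternatives that could be fitted and kept PclWT as the wild-type line, and none reversed. With no count minimum 1426 genes fell in TKO over PclWT EpiLCs, and 353 rose and 732 fell in QKO over TKO EpiLCs. With a minimum of 50 mean counts, which tests fewer genes, these were 584 risen and 573 fallen, and 112 and 195, and 354 genes had a higher effect in EpiLCs than in ESCs. Without PclWT EpiLC replicate 1 and outside chromosomes 1, 11 and 14, 530 fell. RLE normalization gave chromosome 11 a median of -0.58. Leaving out 1 library gave medians of 0.40 to 0.48 on chromosome 1, -0.60 to -0.57 on chromosome 11 and 0.49 to 0.55 on chromosome 14. It gave 719 to 995 risen and 672 to 959 fallen genes in TKO over PclWT EpiLCs, 467 to 657 higher and 324 to 441 lower effects for stage, and 186 to 225 risen and 390 to 462 fallen genes in QKO over TKO EpiLCs.

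With the replicate number as a block 893 rose and 873 fell in TKO over PclWT EpiLCs, 559 effects were higher and 397 lower for stage, and 199 rose and 412 fell in QKO over TKO EpiLCs. The numbers were not taken as pairs, since deviations of same-numbered TKO and PclWT EpiLC libraries correlated at -0.05, 0.07 and -0.15 and those of QKO and TKO EpiLC libraries at -0.10, -0.01 and -0.16, and not every sample correlated best with its own number. In the stage comparison those of PclWT EpiLC and ESC libraries correlated at 0.51, 0.29 and 0.25, but those of TKO EpiLC and ESC libraries only at -0.12, 0.05 and -0.20. For QKO over TKO EpiLCs DESeq2 gave n-R5-8s1, Mir6236 and Lars2 no adjusted p.

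With J2WT EpiLCs in place of PclWT EpiLCs 1661 genes rose, and 564 risen and 425 fallen genes also lay beyond every J2WT and WT EpiLC library. The direction turned against J2WT EpiLCs for Kdm2b (-0.033), Nr0b1 (-1.0), Fgf4 (-1.22), Fgf5 (-3.87), Otx2 (-3.12), Spry4 (-0.99), Dusp4 (-2.05), Peg13 (-0.52), Zfp608 (-0.50), Zfp467 (-0.65), Cdh1 (-0.23), Tpt1 (-0.55), Grb10 (0.81), Atxn1 (0.72), Dusp14 (0.70), Steap3 (0.30), Slain1 (0.14) and Ggact (0.15). Against WT EpiLCs it turned for Gbx2 (-0.063), Nr0b1 (-0.47), Fgf4 (-1.60), Fgf5 (-3.46), Otx2 (-3.56), Car4 (-0.091), Spry4 (-1.35), Dusp4 (-2.08), Zfp608 (-0.46), Zfp467 (-0.76), Cdh1 (-0.40), Tpt1 (-0.40), Ghitm (-0.11), Klf2 (0.074), Atxn1 (0.46), Dusp14 (0.50), Lefty1 (1.24), Wnt8a (0.23), Steap3 (0.47) and Ggact (0.092). Line and genotype cannot be told apart.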
